A study of Mus musculus with 42 samples.

Results

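The collagen genes of the mouse were examined in wild-type and *Tug1*-/- tissues. The members were taken by name, as every gene whose symbol has the form Col, a type number, the letter a and a chain number. The deposited table held 44 such genes among 26653. They were divided by type number into 11 fibrillar genes (types I, II, III, V, XI, XXIV and XXVII), 6 basement membrane genes (type IV) and 27 others. All 44 were found in GENCODE vM21 on GRCm38, the build of the deposited values.

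Collagens are secreted or membrane-bound proteins built of 3 chains wound into a triple helix. The fibrillar collagens are trimmed outside the cell and pack into the fibrils that give tissues tensile strength. Type IV forms the sheet-like network under epithelia and endothelia and around muscle and fat cells. The other types decorate fibrils (the fibril-associated FACIT collagens), form beaded filaments (type VI), anchor epithelia (types VII and XVII), form the hexagonal networks of types VIII and X, or carry sugar chains in vessel walls and basement membranes (the multiplexins XV and XVIII). Fibroblasts, smooth muscle cells and chondrocytes are the main producers of fibrillar collagen.

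PolyA RNA had been sequenced from 42 samples of male mice on a C57BL/6J background (N3, free of the Neo cassette), 22 wild type and 20 *Tug1*-/-. The wild-type animals carried 2 normal *Tug1* alleles. In the *Tug1*-/- animals (the *Tug1* tm1.1Vlcg allele) a *lacZ* reporter stood in place of the gene body on both alleles, with the promoter and the first exon kept. Testes were represented by 4 wild-type and 3 *Tug1*-/- samples, prostate by 3 and 2, and liver, heart, spleen and eyes by 3 and 3 each. Mouse embryonic fibroblasts (MEFs), primary cultures grown from embryos and used at passage 2, were also represented by 3 and 3. The ages of the animals whose tissues were taken were not given in the sources used here, and the MEFs came from littermate embryos. Expression was given as FPKM, fragments per kilobase of transcript scaled to the number of mapped fragments, which allows levels to be compared between genes. The table gave 1 value per genotype and tissue, so no standard deviation between animals could be had and no test could be run here. The authors' own p-values were not used, and the depth behind the values is unknown. Every difference is therefore a difference between 2 combined values, and whether it exceeds the spread between animals was not tested.

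The targeted gene matched the labels: *Tug1* lay between 11.2 FPKM (heart) and 27.7 FPKM (testes) in wild type and at or under 0.402 FPKM in the knockout, and the *lacZ* reporter lay between 0.355 FPKM (liver) and 54.3 FPKM (testes) in *Tug1*-/- and at or under 0.00894 FPKM in wild type. The defining markers of each labelled tissue were present in both genotypes, such as *Prm1* in testes, *Pbsn* in prostate, *Cd79a* in spleen, *Cryaa* in eyes, *Myh6* in heart, *Apoa1* in liver and *Twist2* in MEFs, except that *Tgm4* in prostate and *Serpina1a* in liver were listed at 0. Markers of tissues other than the labelled one differed between the genotypes in 4 tissues. In spleen the 4 pancreas markers summed to 17.5 FPKM in wild type against 1674 FPKM in *Tug1*-/-, all 4 being higher. In eyes, 5 skeletal muscle markers summed to 1666 and 3042 FPKM and 4 adipocyte markers to 16.7 and 58.5 FPKM in wild type and *Tug1*-/-. In prostate the adipocyte markers summed to 10.7 and 41.5 FPKM, and in heart to 49.6 and 23.4 FPKM. In a bulk sample, fewer cells of a type and less RNA per cell cannot be told apart.

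The collagen repertoire differed widely between the tissues, with fibrillar genes the largest class in MEFs, type IV genes in prostate, and a lone non-fibrillar gene holding most of the sum in testes and in liver. With all values rescaled to an equal sum in each genotype and tissue (1000000), the 44 genes together made up 1.15% of all wild-type expression in MEFs, 0.131% in eyes, 0.0998% in testes, 0.0651% in heart, 0.0396% in prostate, 0.0367% in liver and 0.0309% in spleen. The tissues between prostate and spleen in this order lay close to each other, and without values per animal their order cannot be told from the spread. Of the 44 genes, 13 reached 1 FPKM in either genotype in all 7 tissues and 7 in a lone tissue. The highest rescaled wild-type level was in MEFs for 19 genes, in eyes for 12 and in testes for 7. Among the 44, only liver rows held exact zeros: *Col2a1*, *Col6a4*, *Col9a1* and *Col19a1* were listed at 0 there in both genotypes and *Col11a1* in wild type.

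**Figure D1:**
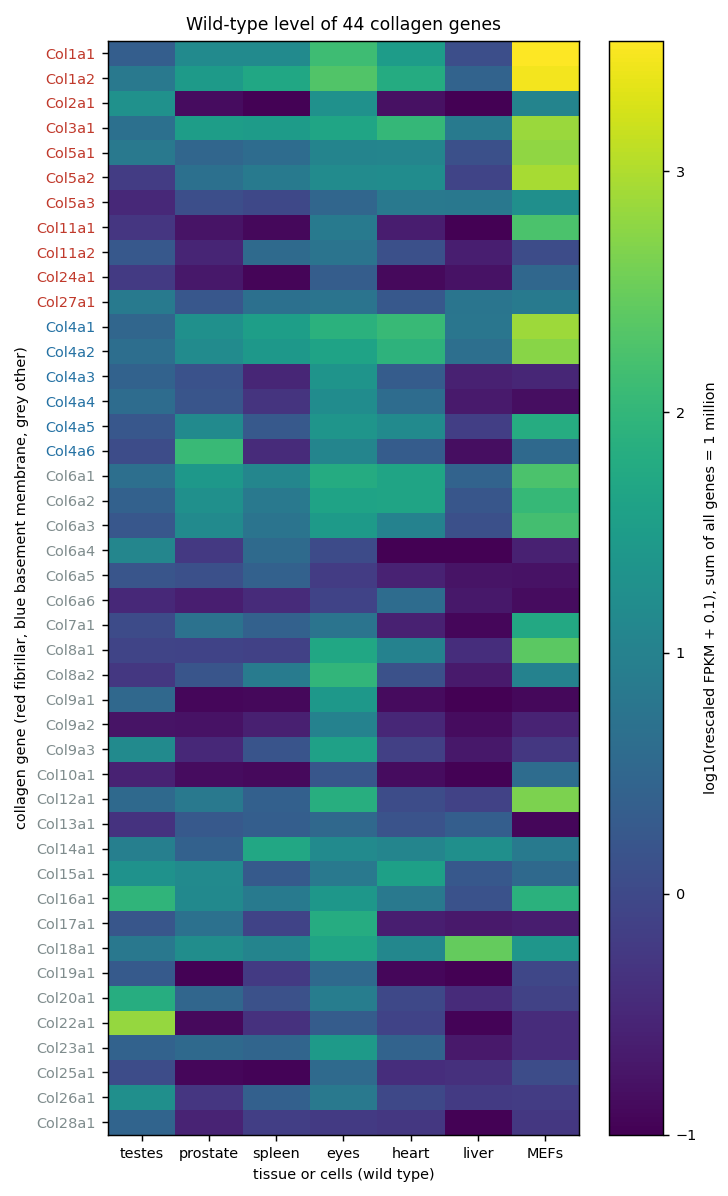
Wild-type level of the 44 collagen genes (rows) in 6 tissues and MEFs (columns), as log10 of the rescaled FPKM plus 0.1, where all genes sum to 1000000. MEFs hold the brightest fibrillar rows (*Col1a1* at 3482), testes a lone bright row for *Col22a1* (658) and liver one for *Col18a1* (299).

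Fibrillar genes supplied 76.7% of the summed collagen FPKM in wild-type MEFs, against 37.5% in spleen, 36.0% in heart, 35.3% in eyes, 22.5% in prostate, 6.85% in liver and 5.06% in testes. Type I collagen, the main fibril of skin, bone and tendon, stood out in MEFs: *Col1a1* at 1754 FPKM was the 30th most abundant gene of all and *Col1a2* at 1459 FPKM the 37th. On the rescaled values *Col1a1* was 25.2 times and *Col1a2* 14 times as high there as in eyes, the next tissue. *Col5a2* (438 FPKM) and *Col5a1* (311 FPKM), chains of the type V collagen that starts fibril assembly, exceeded their next tissue by 54.7 and 53.5 times. *Col3a1*, the fibrillar collagen of vessel walls and hollow organs, reached 371 FPKM in MEFs and was the highest fibrillar gene in heart (63.2 FPKM), prostate (20.8 FPKM) and liver (7.82 FPKM). *Col11a1*, a chain of the cartilage fibril that many fibroblasts also make, was at 89.0 FPKM in MEFs and at or under 2.67 FPKM elsewhere. *Col2a1*, the main collagen of cartilage and vitreous, was highest in testes (14.5 FPKM) and eyes (7.46 FPKM), with rescaled levels of 19.9 and 19.7 that do not order these tissues. *Col27a1* reached 1 FPKM in at least 1 genotype in all 7 tissues, with rescaled wild-type levels from 1.60 in prostate to 7.46 in MEFs.

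Type IV genes supplied 42.7% of the collagen FPKM in wild-type prostate, 34.2% in heart, 20.7% in spleen, 14.8% in eyes, 11.9% in MEFs, 3.09% in liver and 1.65% in testes. *Col4a1* and *Col4a2*, the chains of nearly all basement membranes, were at 68.9 and 53.0 FPKM in heart, where *Col4a1* was the highest collagen gene. They stand head to head on chromosome 8, *Col4a1* from 11198423 to 11312826 on the minus strand and *Col4a2* from 11312805 to 11449287 on the plus strand, and their first exons share 22 bases. Reads of these 22 bases cannot be assigned by strand, since the library kit kept no strand information. *Col4a3* and *Col4a4*, chains known from the kidney filter and mutated in Alport syndrome, were highest in eyes (8.46 and 6.02 FPKM). Their starts lie 72 bases apart.

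*Col4a6*, which pairs with *Col4a5* in the basement membrane of smooth muscle, was the highest collagen gene of wild-type prostate at 71.2 FPKM, or 29.6% of the collagen sum, and its rescaled level was 10.0 times that of eyes, the next tissue. Its head-to-head neighbour *Col4a5*, whose start lies 1309 bases away on the X chromosome, was at 9.10 FPKM there. The ratio of *Col4a6* to *Col4a5* in prostate was 7.82 in wild type and 4.87 in *Tug1*-/-, while it was under 1 in both genotypes of every other tissue. The summed level of 4 smooth muscle markers in prostate was 2286 and 2283 FPKM in the 2 genotypes. That of 8 epithelial genes, a list chosen after values had been seen, was 184.1 and 160.9 FPKM. Of the 7 with 1 FPKM or more, 5 were lower and 2 higher (4 and 3 after rescaling). The part of these cells in the *Col4a6* difference was not tested. The 120 bases before the *Col4a6* start are shown, since this gene leads the prostate collagens, from RefSeq (GRCm38.p6, chrX:141474077-141474196, minus strand), free of annotated exons, with the GC box letters (CCGCCC on the strand shown, GGGCGG on the other) in capitals.
Col4a6: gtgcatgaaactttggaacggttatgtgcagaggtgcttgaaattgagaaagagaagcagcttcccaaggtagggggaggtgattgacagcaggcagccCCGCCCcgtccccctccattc

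The other types were the largest class in testes (93.3% of the collagen FPKM), liver (90.1%), eyes (49.9%) and spleen (41.7%). In wild-type testes the FACIT gene *Col22a1* (chromosome 15, 71795795 to 72034227, minus strand), known from the junctions of muscle with tendon, reached 480 FPKM, 66.0% of the collagen sum and 325 times the rescaled level of eyes, its next tissue. An antisense gene, *Gm16308*, shares 16 bases with its exons and was at 0 FPKM there. The FACIT genes *Col16a1* (68.2 FPKM) and *Col20a1* (49.9 FPKM) followed, so that 3 fibril-associated genes made up 82.2% of the collagen sum in testes. *Col9a3* was at 10.8 FPKM in testes, but 234 bases of its exons (6.07%) overlap *Tcfl5* on the opposite strand, which stood at 179 FPKM there, and reads of this stretch cannot be told apart. In wild-type liver *Col18a1*, the multiplexin whose end releases endostatin, was at 336 FPKM and made up 81.6% of the collagen sum. The FACIT gene *Col14a1*, which lies along type I fibrils, came next at 20.1 FPKM and was the highest collagen gene of wild-type spleen at 25.3 FPKM.

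Eyes held the broadest set, with 37 of 44 genes at 1 FPKM or more in either genotype against 31 in testes, 26 in MEFs, 23 each in prostate, spleen and heart, and 17 in liver. *Col8a2*, a chain of the network in Descemet's membrane under the corneal endothelium, was at 37.5 FPKM, and its partner *Col8a1* at 19.1 FPKM. *Col17a1*, the transmembrane collagen of the hemidesmosome that holds basal epithelial cells down, was at 24.4 FPKM and 13.1 times its next tissue on the rescaled values. The type IX chains *Col9a3*, *Col9a1* and *Col9a2*, FACIT chains that coat type II fibrils, were at 14.8, 10.0 and 3.83 FPKM. *Col15a1*, the other multiplexin, was highest in heart (23.6 FPKM), as was *Col6a6* (2.35 FPKM). The type VI chains *Col6a1*, *Col6a2* and *Col6a3* reached 1 FPKM in all 7 tissues, while *Col6a4* and *Col6a5* did so in 2 tissues each. *Col12a1*, a FACIT chain on type I fibrils (220 FPKM), *Col8a1* (125 FPKM) and *Col7a1* (27.3 FPKM) were highest in MEFs. *Col23a1*, a transmembrane collagen, was highest in eyes (11.3 FPKM), and *Col26a1* (13.1 FPKM) and *Col6a4* (8.80 FPKM) in testes. Other members stayed low: *Col11a2*, *Col10a1*, *Col13a1*, *Col19a1*, *Col24a1*, *Col25a1* and *Col28a1* did not pass 2.45 FPKM in any wild-type tissue.

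The comparison of *Tug1*-/- with wild type asks whether loss of the *Tug1* locus goes with another level of collagen RNA. Few collagen genes differed by much. The difference was taken as log2((KO + 0.1)/(WT + 0.1)) in FPKM, for the genes with 1 FPKM or more in either genotype, and a fold of 1.5 (0.585 on this log2 scale) was the limit. Of 180 such pairs of gene and tissue, out of 308, 2 were past the limit with a higher value in *Tug1*-/- (2.4% of all genes over the 7 tissues) and 7 with a lower value (1.48%), all in different genes. No gene was past it in 2 or more tissues. By sign, 120 of the 180 pairs were lower and 60 higher, where 54.8% of all genes over the 7 tissues were lower; within the limit the counts were 113 and 58 of 171. In testes 0 of 31 genes were past the limit in either direction (1.36% of all genes higher, 0.961% lower) and in heart 0 of 23 (0.925% higher, 1.76% lower). In prostate 1 of 23 was higher (2.76% of all genes) and 0 lower (0.793%). In spleen 0 of 23 were higher (5.15% of all genes) and 1 lower (1.27%). In eyes 0 of 37 were higher (2.79%) and 1 lower (0.948%). In liver 1 of 17 was higher (2.8%) and 0 lower (2.47%). In MEFs 0 of 26 were higher (1.15%) and 5 lower (2.5%), so that MEFs alone held more than 1 gene past the limit. *Col10a1* and *Col24a1* in MEFs and *Col6a5* in spleen reached 1 FPKM in wild type only. *Col5a2* in liver reached it in *Tug1*-/- only. These genes entered the counts through their higher value alone.

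**Figure D2:**
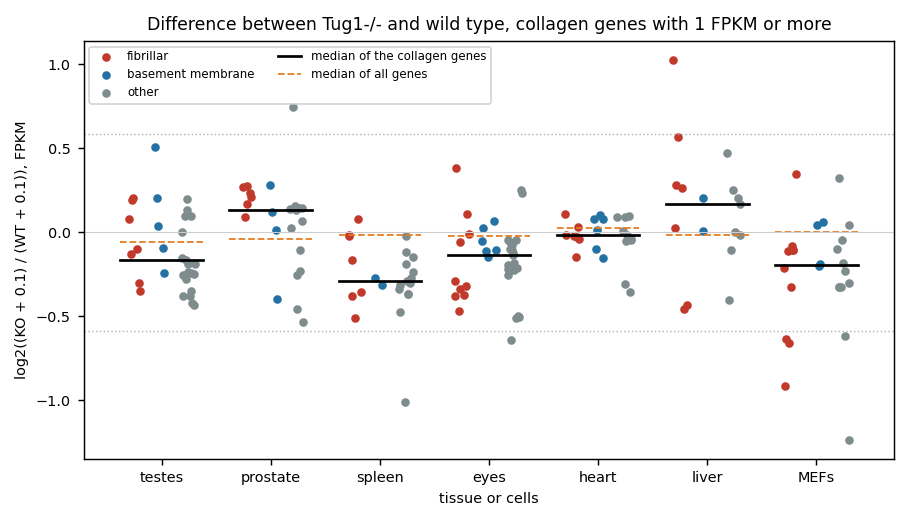
Difference between *Tug1*-/- and wild type for each collagen gene with 1 FPKM or more (points, coloured by class), with the median of the collagen genes (black bar) and of all genes with 1 FPKM or more (dashed bar) in each tissue. The dotted lines mark 1.5-fold. The medians run from -0.29 in spleen to 0.17 in liver, and 5 of the 9 points past the lines are in MEFs.

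In MEFs the collagen genes lay mostly lower in *Tug1*-/- cells, by a median of -0.19 on the log2 scale against 0.00 over all genes, and 21 of 26 were lower where 50.3% of all genes were. *Col10a1*, the network collagen of hypertrophic cartilage, was at 1.96 FPKM in wild type and 0.778 in *Tug1*-/- (log2 difference -1.23). It lies inside *Nt5dc1*, sharing 18 exon bases with it on the opposite strand, and *Nt5dc1* was at 4.10 and 4.71 FPKM. *Col24a1*, a fibrillar chain of developing bone, was at 1.60 and 0.801 FPKM (-0.91). *Col2a1* was at 5.56 and 3.48 FPKM (-0.66), *Col11a1* at 89.0 and 57.2 FPKM (-0.64) and *Col8a2* at 5.09 and 3.29 FPKM (-0.62). Of these 5, *Col11a1* had by far the highest level. After rescaling to equal sums *Col11a1* and *Col8a2* came to lie inside the limit. *Col5a3*, a fibrillar chain, and *Col6a3* had the largest differences in the other direction, at 9.30 and 11.9 FPKM (0.35) and 75.7 and 94.5 FPKM (0.32).

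RefSeq promoter windows were at hand for 35 of the 44 genes, in 38 windows, and not for *Col2a1*. The 120 bases before 3 of the starts are shown because these genes were lower in the same cells and their windows hold no annotated exon. *Col8a2*, also past the limit in MEFs, is not shown. Capitals mark the TATA box (TATAAA), the CCAAT box (CCAAT or ATTGG) and the GC box (GGGCGG or CCGCCC). The windows are chr10:34389861-34389980, chr3:114030420-114030539 and chr3:145292352-145292471 on GRCm38.p6, all on the plus strand.
Col10a1: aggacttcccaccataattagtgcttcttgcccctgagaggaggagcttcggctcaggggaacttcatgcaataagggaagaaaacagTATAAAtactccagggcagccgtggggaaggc
Col11a1: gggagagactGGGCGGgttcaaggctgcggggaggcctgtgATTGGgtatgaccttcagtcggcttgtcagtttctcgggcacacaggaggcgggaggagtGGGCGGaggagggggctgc
Col24a1: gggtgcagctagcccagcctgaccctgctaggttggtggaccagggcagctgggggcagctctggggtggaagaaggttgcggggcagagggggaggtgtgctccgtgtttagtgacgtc

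Each of the 3 windows held a different set of these letters: a TATA box in *Col10a1*, a CCAAT box and 2 GC boxes in *Col11a1*, and none of them in *Col24a1*. Over all 250 bases before the start, a GC box on either strand was present in 57.9% of the 38 collagen windows and 32.7% of the 32851 windows of all genes. A CCAAT box on either strand was present in 34.2% and 33.8%. A TATAAA on the gene's strand within the last 50 bases was present in 2.63% of both, the lone collagen window being that of *Col10a1*.

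The abundant chains of MEFs lay closer to wild type. *Col1a1* was at 1754 FPKM in wild type and 1632 in *Tug1*-/- (-0.10), *Col1a2* at 1459 and 1258 FPKM (-0.21), *Col3a1* at 371 and 296 FPKM (-0.32) and *Col5a2* at 438 and 408 FPKM (-0.10). The basement membrane chains *Col4a1* (384 and 396 FPKM) and *Col4a2* (269 and 281 FPKM) were slightly higher. Summed over the class, the fibrillar genes stood at 4443 and 3965 FPKM, and the type IV genes at 689 and 708 FPKM. The summed level of 8 fibroblast markers was 993 and 1025 FPKM, with *Fbln2* alone at 516 and 558 FPKM (0.12). Of the 7 with 1 FPKM or more, 3 were higher and 4 lower (median -0.02), or 4 and 3 after rescaling. The summed level of 4 smooth muscle markers was 8921 and 8064 FPKM. All 6 cartilage markers were under 1 FPKM in both genotypes of MEFs, with *Acan* at 0.346 and 0.180 FPKM and *Matn3* at 0.809 and 0.545 FPKM. Their part in the collagen differences was not tested.

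**Figure D3:**
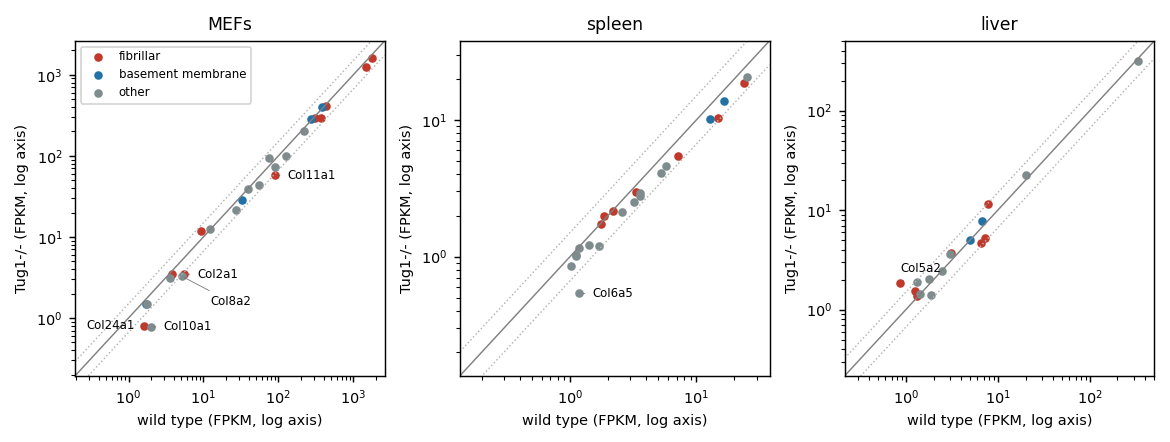
FPKM of the collagen genes with 1 FPKM or more in wild type (horizontal) and *Tug1*-/- (vertical), on log axes, in MEFs, spleen and liver. The solid line marks equal values and the dotted lines 1.5-fold, and the genes past them are named. Points of spleen lie below the solid line for 22 of 23 genes, while in liver 11 of 17 lie above it.

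Spleen showed the most even shift. Of 23 collagen genes 22 were lower in *Tug1*-/-, where 54.5% of all genes were, and the median was -0.29 against -0.02 for all genes. With the differences centred on the median of all genes, 21 were lower. *Col1a2*, at 23.9 and 18.6 FPKM (-0.36), *Col3a1*, at 14.8 and 10.4 FPKM (-0.51), *Col14a1*, at 25.3 and 20.5 FPKM (-0.30), *Col4a1*, at 16.7 and 13.8 FPKM (-0.27), and *Col6a1*, at 5.76 and 4.61 FPKM (-0.32), come from all 3 classes. *Col6a5*, a minor type VI chain, was the lone gene past the limit, at 1.19 and 0.540 FPKM (-1.01). *Col5a1* was the lone higher gene, at 1.86 and 1.97 FPKM (0.08). Genes of other cell types of spleen were also lower: 4 of 4 B cell markers (*Cd79a* at 420 and 331 FPKM, -0.35), 4 of 4 endothelial markers (median -0.20) and 3 of 4 smooth muscle markers (median -0.25), whereas 8 fibroblast markers had a median of -0.02. The pancreas markers were far higher, as given above, with *Ctrb1* at 1.003 and 635 FPKM. Their part in the collagen shift was not tested.

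Liver leaned the other way. Of 17 collagen genes 11 were higher in *Tug1*-/- and 6 lower, where 54.3% of all genes were lower, and the median was 0.17 against -0.02 for all genes. The median moved with the minimum and the scale, to 0.0058 with no minimum and 0.0052 with a minimum of 5 FPKM, and to 0.33 after rescaling, when 3 genes were lower. The 11 were 5 fibrillar genes, 3 type VI chains, the 2 type IV chains with 1 FPKM or more (*Col4a1* and *Col4a2*) and *Col14a1*. *Col4a5*, under 1 FPKM, was at 0.673 and 0.566 FPKM (-0.21). *Col5a2* was at 0.868 FPKM in wild type and 1.87 in *Tug1*-/- (1.03) and was past the limit. *Col3a1* was at 7.82 and 11.6 FPKM (0.56), *Col6a3* at 1.33 and 1.87 FPKM (0.47), *Col1a1* at 1.25 and 1.54 FPKM (0.28) and *Col1a2* at 3.07 and 3.70 FPKM (0.26). The lower genes included *Col27a1*, at 6.51 and 4.72 FPKM (-0.46), *Col5a3*, at 7.17 and 5.28 FPKM (-0.43), and *Col15a1*, at 1.87 and 1.39 FPKM (-0.41). *Col18a1*, the abundant chain, was at 336 and 313 FPKM (-0.11, or 0.05 after rescaling to equal sums). The FPKM of all genes summed to 1124495 in wild-type and 1008111 in *Tug1*-/- liver, and rescaling to equal sums shifted the differences upward by 0.16 (slightly less for low genes, through the pseudocount), so that *Col3a1* and *Col6a3* also passed the limit. Smooth muscle markers were higher as well, 3 of 3 with 1 FPKM or more, with *Acta2* at 2.03 and 3.67 FPKM (0.82). Of these 3, *Myh11*, at 0.676 and 1.21 FPKM (0.76), reached 1 FPKM in *Tug1*-/- only. Of the 4 fibroblast markers with 1 FPKM or more, 2 were higher and 2 lower (median -0.02), with *Dpt* at 4.60 and 7.10 FPKM (0.61) and *Pdgfra* at 1.67 and 1.45 FPKM (-0.19). The 4 markers of hepatic stellate cells, a list chosen after values had been seen, summed to 26.3 and 25.3 FPKM. Of these, *Des* (0.34) and *Reln* (13.4 and 14.2 FPKM, 0.09) were higher and *Lrat* (-0.36) and *Ngfr* (-0.34) lower. Their part in the liver differences was not tested.

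In eyes 31 of 37 collagen genes were lower in *Tug1*-/-, where 56.5% of all genes were, with a median of -0.13 against -0.02. *Col17a1* was past the limit at 24.4 and 15.6 FPKM (-0.64), and *Col7a1*, which forms the anchoring fibrils of the same epithelial junction, lay just inside it at 2.04 and 1.40 FPKM (-0.51). The type I chains were lower, *Col1a1* at 52.2 and 37.7 FPKM (-0.47) and *Col1a2* at 78.2 and 62.7 FPKM (-0.32), while *Col3a1* was higher, at 17.8 and 23.2 FPKM (0.38). The type IV genes summed to 73.2 and 73.0 FPKM. Keratins of the corneal epithelium, in a list of 8 epithelial genes chosen after values had been seen, were lower by a similar amount: *Krt12* at 317 and 203 FPKM (-0.64) and *Krt5* at 475 and 311 FPKM (-0.61), but *Krt14* at 28.1 and 32.7 FPKM (0.22) and *Itgb4* at 4.91 and 4.63 FPKM (-0.08). The muscle and fat markers given above were higher, as were 4 of 4 smooth muscle markers (median 0.07). Of 8 fibroblast markers 5 were higher, *Pi16* at 22.7 and 35.7 FPKM (0.65) being the furthest, and 2 of 2 cartilage markers with 1 FPKM or more were lower (*Comp* at 8.52 and 6.17 FPKM, -0.46). Their part in the eye differences was not tested.

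In prostate 17 of 23 collagen genes were higher in *Tug1*-/- and 6 lower, where 60.5% of all genes were lower, with a median of 0.13 against -0.04. All 6 fibrillar genes with 1 FPKM or more were higher, between 0.09 and 0.28, with *Col1a2* at 17.8 and 21.7 FPKM. *Col14a1* was past the limit at 1.53 and 2.63 FPKM (0.74). The 6 lower genes included *Col4a6*, at 71.2 and 54.0 FPKM (-0.40), and *Col20a1*, at 1.87 and 1.26 FPKM (-0.54), which was the furthest below 0. Fibroblast markers were higher in 7 of 8 (median 0.32), with *Fbln1* at 5.39 and 8.48 FPKM (0.64), and adipocyte markers in 3 of 3 (*Adipoq* at 3.93 and 15.5 FPKM, 1.95). Their part in the prostate differences was not tested, and the *Tug1*-/- value of prostate rests on 2 animals.

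Testes and heart held no collagen gene past the limit. In testes 21 of 31 genes were lower, where 63.5% of all genes were, so that the share lower was close to that of all genes. The median was -0.16 against -0.06. Rescaling shifted the differences upward by 0.10 and left 19 lower, but the share of all genes was taken before it. *Col22a1* was at 480 and 406 FPKM (-0.24), *Col16a1* at 68.2 and 57.5 FPKM (-0.25) and *Col20a1* at 49.9 and 43.8 FPKM (-0.19). Spermatid genes were lower, such as *Prm1* at 9265 and 8230 FPKM (-0.17). Smooth muscle markers were higher in 4 of 4 (median 0.14) and endothelial markers in 2 of 2 with 1 FPKM or more (median 0.43). Of these 2, *Kdr*, at 0.687 and 1.07 FPKM (0.57), reached 1 FPKM in *Tug1*-/- only. The endothelial markers *Pecam1* (-0.06) and *Tek* (0.01) were under 1 FPKM in both genotypes and close to 0 difference. Of 4 fibroblast markers with 1 FPKM or more, 2 were higher and 2 lower (median -0.08). The part of these cells in the testes differences was not tested. *Col4a1* was the furthest from 0, at 2.25 and 3.24 FPKM (0.51), and passed the limit after rescaling. *Col5a1* was at 4.89 and 4.55 FPKM (-0.10), whereas the study, with another measure and processing, lists it as higher in *Tug1*-/- testes. In heart 13 of 23 were lower, where 41.8% of all genes were, with a median of -0.02 against 0.03. After rescaling 17 were lower, but the share of all genes was taken before it. *Col4a1* was at 68.9 and 72.8 FPKM (0.08), *Col3a1* at 63.2 and 57.0 FPKM (-0.15) and *Col4a2* at 53.0 and 56.9 FPKM (0.10). *Col16a1*, at 4.20 and 3.26 FPKM (-0.35), was the furthest from 0. Of 5 skeletal muscle markers 4 were lower in *Tug1*-/- heart, such as *Tnnt3* (30.3 and 0.786 FPKM), but *Ckm*, which heart muscle also makes, was at 1144 and 1294 FPKM (0.18), and the list summed to 1336 and 1402 FPKM. In heart 4 of 4 B cell markers (*Cd79a* at 9.51 and 4.50 FPKM) and 4 of 4 smooth muscle markers (median -0.44) were also lower, and the part of these cells was not tested.

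Many collagens are built of chains from different genes, and the ratio of their RNAs was compared between tissues and genotypes. *Col1a1* and *Col1a2*, which join in type I collagen as 2 and 1 chains, had a ratio of 0.300 in wild-type spleen, 0.332 in testes, 0.407 in liver, 0.498 in prostate, 0.528 in heart, 0.667 in eyes and 1.20 in MEFs. The *Tug1*-/- ratios ran from 0.294 in spleen to 1.30 in MEFs, and between genotypes the ratio differed by at most 0.15 on the log2 scale. *Col6a1* and *Col6a2* were even closer, with wild-type ratios from 1.01 (heart) to 1.81 (spleen) and genotype differences from -0.06 to 0.10. *Col4a1* and *Col4a2* had wild-type ratios from 0.735 (testes) to 1.84 (eyes). Testes was the exception between genotypes, at 0.735 and 1.03 (0.49), with *Col4a2* at 3.06 and 3.14 FPKM. *Col5a1* was lower than *Col5a2* in each of the 5 tissues where both passed 1 FPKM in both genotypes, with ratios from 0.561 to 0.733 in wild type. In testes and liver, where *Col5a2* was under 1 FPKM in wild type, it was the lower chain in wild type: 0.401 against 4.89 FPKM in testes and 0.868 against 1.33 FPKM in liver. In *Tug1*-/- liver it was the higher chain, at 1.87 against 1.36 FPKM. The ratio of *Col5a2* to *Col5a1* was thus 0.651 and 1.38 in liver, and 0.0821 and 0.0823 in testes. The minimum of 1 FPKM kept these 2 tissues out of the compared ratios of this pair.

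Type VI collagen is assembled from *Col6a1*, *Col6a2* and *Col6a3* in equal parts, and *Col6a3* varied most against its partners. The ratio of *Col6a3* to *Col6a1* ran from 0.229 in wild-type heart to 0.845 in wild-type MEFs. In MEFs it was 1.30 in *Tug1*-/- (0.63 higher on the log2 scale), since *Col6a3* was higher and *Col6a1* lower, and in prostate it was 0.567 and 0.429 (-0.40). The type VIII chains kept opposite proportions in eyes and in MEFs: *Col8a1* to *Col8a2* was 0.510 and 0.530 in eyes and 24.5 and 30.2 in MEFs. In eyes *Col9a1* to *Col9a2* was 2.61 and 2.55 and *Col11a1* to *Col11a2* was 1.27 and 1.32.

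**Figure D4:**
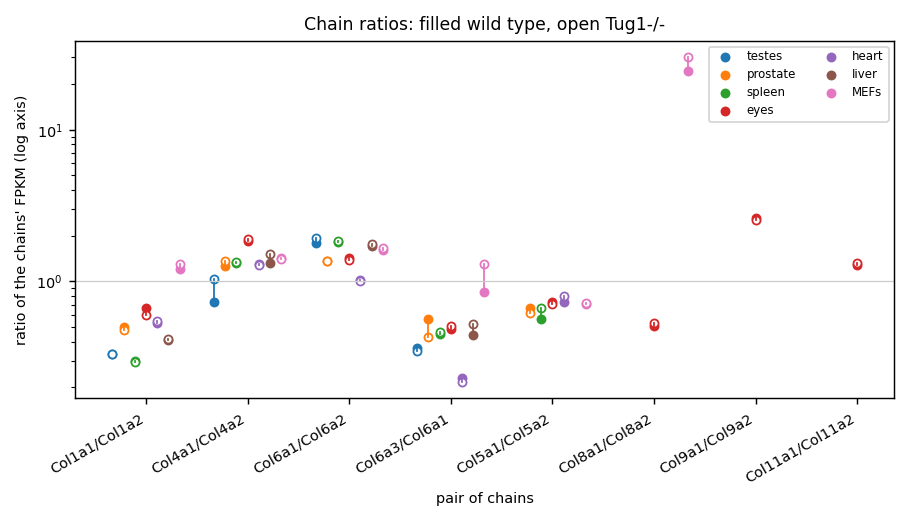
Ratio of the FPKM of 2 chains of a collagen (log axis) in wild type (filled) and *Tug1*-/- (open), where both chains had 1 FPKM or more in both genotypes. The *Col1a1* to *Col1a2* ratio spreads from 0.300 to 1.20 between wild-type tissues. The filled and open points of a tissue lie furthest apart for *Col6a3* to *Col6a1* in MEFs and prostate and *Col4a1* to *Col4a2* in testes. *Col8a1* to *Col8a2* in MEFs (24.5 and 30.2) comes next.

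Genes that fold, trim, bind or break down collagen were read beside it, from 7 lists with 76 genes in all. In MEFs 48 of 68 were lower in *Tug1*-/- (median -0.14), where 50.3% of all genes were. After rescaling 42 of the 68 were lower, but the share of all genes was taken before it. Of the folding and modification genes 16 of 17 were lower (11 after rescaling, median -0.14). *P4hb*, the shared subunit of prolyl hydroxylase, was at 503 and 435 FPKM (-0.21). *Serpinh1*, the collagen chaperone Hsp47, was at 1143 and 1102 FPKM (-0.05), with its sign turned by rescaling. Of the 68, 0 were past the limit higher (1.15% of all genes) and 3 lower (2.5% of all genes, 2 of the 68 after rescaling, which took out *Lum*): *Fmod*, a proteoglycan that limits fibril width, at 5.92 and 3.51 FPKM (-0.74), the laminin gene *Lama2* at 4.05 and 2.44 FPKM (-0.71) and the proteoglycan *Lum* at 2.57 and 1.66 FPKM (-0.60). *Lox*, which crosslinks fibrils, was at 594 and 473 FPKM (-0.33). In spleen 41 of 62 were lower (median -0.14), where 54.5% of all genes were, but the folding list had a median of 0.05. There *P4ha1*, the catalytic subunit of prolyl hydroxylase, was at 11.6 and 17.5 FPKM (0.59) and the neutrophil collagenase gene *Mmp8* at 1.52 and 3.08 FPKM (0.97). These 2 were past the limit higher (5.15% of all genes) and 0 were past it lower (1.27%), but *P4ha1* was at 0.56 after rescaling and inside the limit.

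In liver 37 of 47 were higher and 10 lower (median 0.14), where 54.3% of all genes were lower. Past the limit were 4 higher (2.8% of all genes) and 0 lower (2.47%): *Ctgf*, a target of TGF-beta, at 5.92 and 16.4 FPKM (1.45), *P4ha1* at 4.76 and 12.5 FPKM (1.38), *Leprel1*, a prolyl 3-hydroxylase, at 0.580 and 1.11 FPKM (0.83), and *Serpinh1* at 6.58 and 10.3 FPKM (0.63). In prostate 45 of 57 were higher and 12 lower (median 0.14), where 60.5% of all genes were lower. Higher past the limit were 3 (2.76% of all genes): *Ctgf* at 7.27 and 15.1 FPKM (1.04), *Lum* at 4.98 and 8.82 FPKM (0.81) and the gelatinase gene *Mmp9* at 1.496 and 2.58 FPKM (0.75). In heart 43 of 64 were higher and 21 lower (median 0.05), where 41.8% of all genes were lower. After rescaling 28 were higher, but the share of all genes was taken before it. *Ctgf*, at 47.9 and 79.6 FPKM (0.73), and *P4ha1*, at 16.4 and 27.3 FPKM (0.73), were past the limit (0.925% of all genes). *Ctgf* was thus past the limit in 3 tissues, and *P4ha1* in 3, or 2 after rescaling. In eyes 37 of 66 were higher and 29 lower (median 0.04), where 56.5% of all genes were lower. The stromelysin gene *Mmp3*, at 27.3 and 17.7 FPKM (-0.62), was the lone gene past the limit (0.948% of all genes lower). In testes 40 of 53 were higher and 13 lower (median 0.16), where 63.5% of all genes were lower, against the collagen median of -0.16. The 4 past the limit with a higher value (1.36% of all genes) were led by *Timp1*, an inhibitor of collagenases, at 0.725 and 6.83 FPKM (3.07), and the collagen receptor *Ddr1* at 5.97 and 12.004 FPKM (0.995), and *Pcolce2*, an enhancer of propeptide removal, at 1.02 and 0.557 FPKM (-0.77), was the lone lower gene (0.961%).

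**Figure D5:**
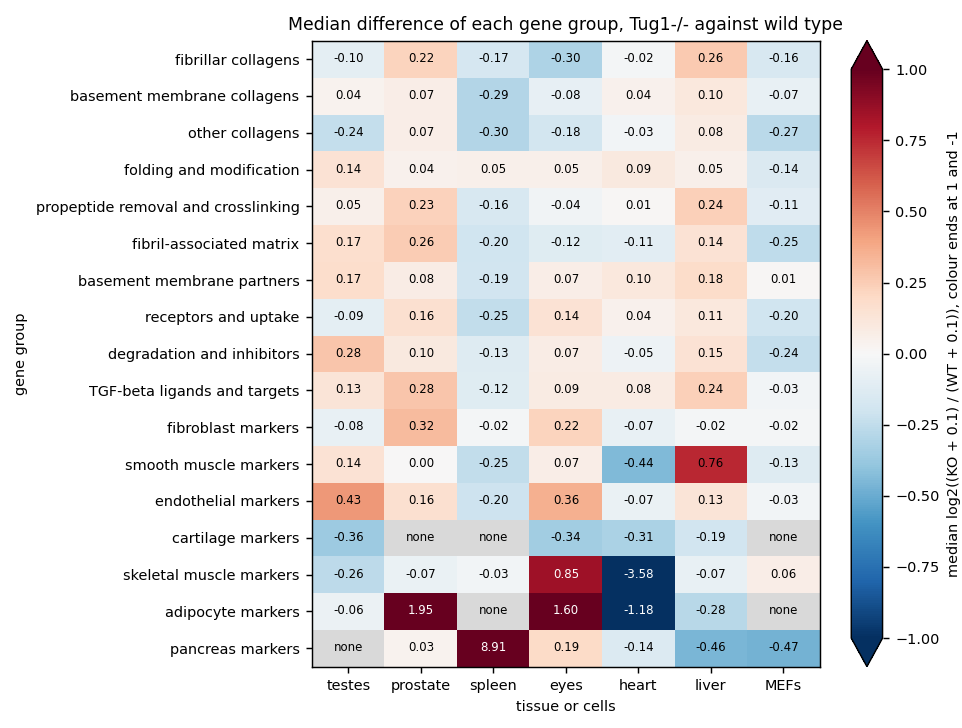
Median log2 difference between *Tug1*-/- and wild type of the 3 collagen classes, the 7 lists of collagen-related genes and 7 lists of cell type markers, over members with 1 FPKM or more in either genotype. Grey fields marked none have no such member. The collagen classes stay between -0.30 and 0.26. Beyond the colour scale lie the pancreas markers of spleen (8.91), the adipocyte markers of prostate (1.95), eyes (1.60) and heart (-1.18) and the skeletal muscle markers of heart (-3.58).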

How the data were processed

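RNA of 42 samples had been sequenced (TruSeq RNA Sample Preparation Kit v2, which keeps no strand). The submitters' processing notes name CASAVA 1.8.2, TopHat2, Cuffdiff and mm10. The authors deposited 1 table with an FPKM value per genotype and tissue, replicates combined; its header does not name the unit, which was taken from its Cuffdiff layout. A status column deposited by the authors says whether each comparison was run. The table's fold changes, test statistics, p-values, q-values and calls are the authors' own comparison and were not used. Values of 2 groups of 1 tissue without labelled samples were not used. Depth is unknown.

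Columns were assigned to genotypes and tissues by the labels. Differences used a pseudocount of 0.1 and a minimum of 1 FPKM in either genotype, and a limit of 1.5-fold, a fold the study required beside its FDR for genes near Tug1 only. No test was run. Named were, per tissue, the 3 highest members, the 6 largest differences past the limit, the chains of the ratios and the 3 largest differences of related genes; other genes named were chosen after their values were seen. Members and lists were chosen with earlier results of these data known. Positions and promoters came from GENCODE vM21 and RefSeq (GRCm38). Steps ran in Python 3.11.15 with pandas 2.3.3 and were tested on simulated data. Alternatives were other pseudocounts, minimums, limits and scalings.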

Additional observations from a re-analysis of the deposited data

How the results depend on the processing

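Of 42 medians recomputed under other settings, 38 stayed within 0.1 of the value above and kept their sign. The median of heart was -0.02 and became 0.031 with a minimum of 5 FPKM. The median of liver (0.17) became 0.0058 with no minimum, 0.0052 with a minimum of 5 FPKM and 0.33 with rescaled values. Counts past the limit were small and moved easily. Over all tissues, 2 genes were higher and 7 lower. The counts were 1 and 3 with a pseudocount of 1, and 4 and 11 with no minimum. With a minimum of 5 FPKM they were 0 and 4, with a limit of 2-fold 1 and 2, and with rescaled values 5 and 5. In MEFs the 5 lower genes became 2 (pseudocount of 1), 3 (minimum of 5 FPKM), 1 (limit of 2-fold) and 3 (rescaled). The lone higher gene of prostate became 0 with a pseudocount of 1, a minimum of 5 FPKM or a limit of 2-fold, and 2 with no minimum. The lone lower gene of spleen became 0 with a pseudocount of 1 or a minimum of 5 FPKM, and 2 with no minimum. In liver the higher count became 0 (minimum of 5 FPKM) and 3 (rescaled), and the lower count 2 (no minimum). The lower count of eyes became 0 with a limit of 2-fold. Testes had 1 higher gene with no minimum and with rescaled values. The number of liver genes lower by any amount, 6, became 3 with rescaled values, a setting added for this count after the data had been seen. No paired analysis was possible because only combined values were deposited, and for the same reason no replicate could be left out. The low genes are limited by an unknown depth.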
